A study of Mus musculus with 13 samples.

Results

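Oxidative phosphorylation makes most of the ATP of neurons by passing electrons from NADH and succinate along complexes I to IV of the inner mitochondrial membrane, of which I, III and IV pump the protons that then drive the ATP synthase, complex V. Complexes I, III, IV and V are built from a core encoded by mitochondrial DNA and from many subunits encoded in the nucleus, whereas complex II, succinate dehydrogenase, is nuclear throughout and also belongs to the citrate cycle. In the hippocampus these complexes meet the energy demand of firing and of restoring ion gradients, which rises steeply in seizures. The nuclear-encoded subunit genes were taken as the protein-coding genes whose symbols start with Nduf followed by a, b, c, s or v and a digit, with Uqcr, with Cox4 to Cox8 or with Atp5, together with Sdha, Sdhb, Sdhc and Sdhd. This gave 86 of 45777 genes in the table, of which 21949 are protein-coding: 37 of complex I (NADH dehydrogenase), 4 of complex II, 8 of complex III (the cytochrome bc1 complex), 20 of complex IV (cytochrome c oxidase) and 17 of complex V. Ndufa4, first described as a complex I subunit and now placed in complex IV, was counted with complex IV, as was its paralogue Ndufa4l2. A further 11 entries with symbols of the same form are pseudogenes or noncoding and were left out; the most abundant was Ndufb1-ps, at 37.7 to 60.1 CPM.

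RNA was from whole hippocampi of mice of both sexes, taken on day 3 after saline (sham) or after status epilepticus (SE), a prolonged seizure induced by the muscarinic agonist pilocarpine (males 260 mg/kg, females 280 mg/kg) after scopolamine methyl nitrate and terbutaline. The mice were 6 weeks old at injection. Both genotypes carried Nestin-Cre, and differed in Lin28a: Lin28a+/+ (WT), or Lin28aloxP/loxP (cKO), in which Cre under the Nestin promoter deletes the gene in neural progenitors and so in the neurons and macroglia derived from them, but not in microglia. Sham libraries numbered 3 (WT) and 4 (cKO), and SE libraries 3 of each genotype, each labelled a biological replicate and none labelled by sex. Lin28a itself, which encodes the RNA-binding protein deleted here, was at 0 counts in every library but SE-WT replicate 3, which had 3, so its RNA does not check the genotype labels.

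Depth was 59659977 to 84354243 read counts per library, and the 86 genes held 466509 to 902464 of them. Levels below are CPM, that is read counts scaled to the library size with TMM factors, and differences are log2 fold changes from edgeR's quasi-likelihood test with Benjamini-Hochberg adjustment over all genes tested; a gene is called higher or lower where the adjusted p is under 0.05. SE-WT replicate 3 and SE-cKO replicate 3, whose titles follow another style than the rest, stood apart, with 4.83% and 3.92% mitochondrial rRNA among read counts where the remaining libraries had 0.486% to 1.66%. Genes of striatal neurons were high in SE-WT replicate 2, and genes of thalamic neurons in sham-cKO replicate 2 and SE-WT replicate 3. The 8 markers of hippocampal principal neurons were present in every group, with summed levels of 519 to 715 CPM in sham-WT, 599 to 804 CPM in sham-cKO, 316 to 629.9 CPM in SE-WT and 430.1 to 712 CPM in SE-cKO; 1 of the 8 was called lower after SE in WT mice and 2 in cKO mice. SE-WT replicates 1 and 2 were low in this list, with a median log2 level relative to sham-WT of -1.52 and -2.20, against 0.19 in SE-WT replicate 3 and -0.44 to 0.07 in the SE-cKO libraries, and its part in the levels of the subunit genes was not tested.

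In sham-WT hippocampus the ATP synthase and cytochrome c oxidase held the highest summed levels of the subunit genes, and complex II the lowest. Levels are compared between genes as deposited TPM, which are scaled per transcript length. Summed over members, sham-WT held 3903 ± 281 TPM (SD, n = 3) for complex I, 424 ± 44.2 for complex II, 1437 ± 68.2 for complex III, 4401 ± 252 for complex IV and 4680 ± 390 for complex V. The median member stood at 97.6 TPM in complex I and at 236 TPM in complex V. Atp5b, the catalytic beta subunit of the ATP synthase, was the most abundant member at 808 ± 93.6 TPM (SD, n = 3), followed by the complex IV subunits Cox4i1 at 626 ± 59.5 TPM and Cox8a at 621 ± 11.3 TPM, which did not differ beyond their spread. Atp5a1, which encodes the alpha subunit, followed at 522 ± 56.1 TPM, next to Ndufa4 at 521 ± 31.5 TPM. In complex I, Ndufb9 led at 271 ± 16.0 TPM before Ndufb8 at 227 ± 16.7 TPM, both accessory subunits of the membrane arm. In complex III, Uqcrh, the hinge protein, stood at 327 ± 9.51 TPM and Uqcr11 at 285 ± 17.2 TPM, and in complex II the flavoprotein Sdha, at 148 ± 16.0 TPM, and the iron-sulfur protein Sdhb, at 135 ± 21.9 TPM, overlapped in their spread.

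**Figure D1:**
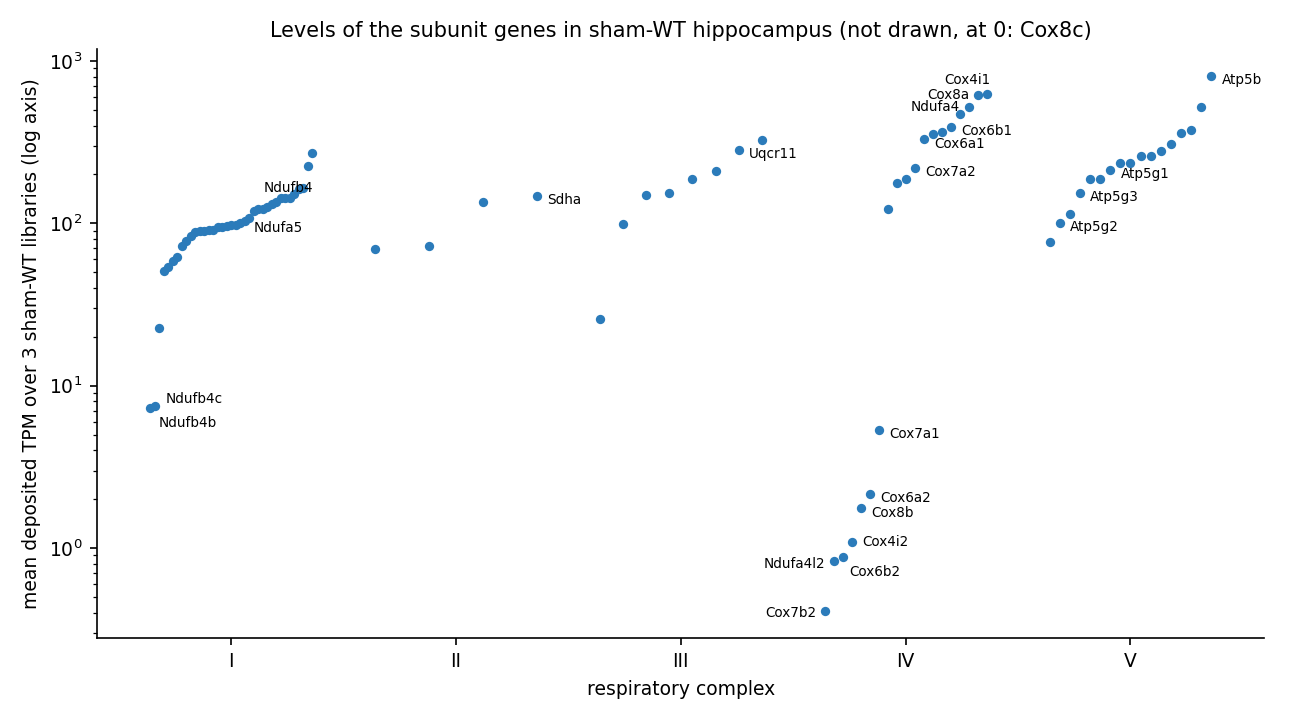
Mean deposited TPM over the 3 sham-WT libraries (log axis) for each subunit gene, ordered by level within its respiratory complex on the x axis; points are genes. Atp5b is highest at 808 TPM, and complex IV holds a group of tissue-restricted paralogues far below its other subunits, from 0.409 TPM (Cox7b2) to 5.34 TPM (Cox7a1), with Cox8c at 0.

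Complex IV is the complex with the most tissue-specific isoforms, and in hippocampus 1 paralogue of each set dominated. Cox6a1, the form found in most tissues, was at 329 ± 14.9 TPM (SD, n = 3) in sham-WT against 2.16 ± 0.593 TPM for Cox6a2, the heart and skeletal muscle form. Cox7a2 stood at 220 ± 3.97 TPM and its muscle counterpart Cox7a1 at 5.34 ± 0.574 TPM, while Cox7a2l, a related factor of supercomplex assembly, was at 188 ± 14.5 TPM. Cox4i2, the hypoxia-linked form of subunit 4, was at 1.09 ± 0.445 TPM beside 626 TPM for Cox4i1, and Ndufa4l2, likewise hypoxia-linked, was at 0.827 ± 0.0847 TPM. Cox6b2 and Cox7b2, known from testis, were at 0.875 ± 0.268 TPM and 0.409 ± 0.196 TPM, against 394 ± 23.5 TPM for Cox6b1 and 178 ± 21.8 TPM for Cox7b. Cox8b was at 0 CPM in sham-WT replicate 1, 0.290 CPM in replicate 2 and 1.25 CPM in replicate 3, and Cox8c had 0 counts in every library, which allows at most 0.0356 to 0.0503 CPM per library if 3 counts are taken as the floor (counting error only). The 3 genes of the c ring of complex V, which encode the same mature protein behind different import signals, were at 213 ± 2.93 TPM for Atp5g1, 154 ± 15.0 TPM for Atp5g3 and 101 ± 6.75 TPM for Atp5g2. Ndufb4b and Ndufb4c, near-identical copies of Ndufb4 that may take some of its reads, stood at 7.30 ± 0.761 TPM and 7.54 ± 0.726 TPM, beside 131 ± 17.3 TPM for Ndufb4.

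The members share features that their selection did not use. They are short: the median of the longest coding sequence in GENCODE M21 was 397.5 bases over the 84 members with one, against 1218 bases over protein-coding genes, from 156 bases for Atp5e to 2181 bases for Ndufs1, and 70 of the 84 lay under the lower quartile of all protein-coding genes. They are scattered over the genome, with at most 8 on a chromosome (chromosome 7), and Ndufa1, Ndufb11 and Cox7b lie on the X chromosome. The promoter windows of RefSeq on GRCm38.p6, 250 bases before to 50 after a start, were at hand for 69 members and were searched on both strands for 4 words that belong to known regulators of these genes. GCGCATGCG, the core of the NRF-1 site, was present in 8 members (11.6%) against 2.61% of 17519 protein-coding genes, CCGGAAG, an ETS core of the kind GABP binds, in 17 (24.6%) against 12.9%, AAGATGGC, the core of the YY1 site, in 10 (14.5%) against 3.56%, and AAGGTCA, the core bound by estrogen-related receptors, in 8 (11.6%) against 4.73%. At least 1 of the 4 words was present in 34 of the 69 (49.3%) and in 21.7% of protein-coding genes. GCGCATGCG and its reverse complement share most of their letters, so both strands can match at the same place. AAGATGGC lay 22 to 38 bases after the start on the strand of the gene in 8 of its 10 members, and holds the letters ATG of a start codon. A match is a stretch of letters and not evidence of binding.

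The windows below, 150 bases before to 30 after the start and written 5′ to 3′ on the strand of the gene, are shown for 3 members that were called lower after SE (Sdha, Uqcrfs1 and Atp5j) and for the other members whose window held at least 2 of the words (Uqcr11 and Atp5k); capitals mark the words. All 5 genes are on the minus strand of GRCm38.p6, and no word was found in the windows of Sdha and Uqcrfs1. Of the other members called lower, Ndufa5 had 2 windows, which held no word and are not shown, and Ndufs1 and Cox6c had no window. For Atp5j, the one of its 2 annotated starts whose window held words is shown.
Sdha, chr13:74350211-74350390: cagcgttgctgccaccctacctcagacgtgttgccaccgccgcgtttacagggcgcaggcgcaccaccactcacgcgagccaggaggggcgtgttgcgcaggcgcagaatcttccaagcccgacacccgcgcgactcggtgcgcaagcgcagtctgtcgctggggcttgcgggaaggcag
Uqcrfs1, chr13:30545287-30545466: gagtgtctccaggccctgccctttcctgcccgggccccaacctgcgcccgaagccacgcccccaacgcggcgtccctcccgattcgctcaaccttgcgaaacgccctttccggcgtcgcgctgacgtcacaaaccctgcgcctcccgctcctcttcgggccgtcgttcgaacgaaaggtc
Atp5j, chr16:84834947-84835126: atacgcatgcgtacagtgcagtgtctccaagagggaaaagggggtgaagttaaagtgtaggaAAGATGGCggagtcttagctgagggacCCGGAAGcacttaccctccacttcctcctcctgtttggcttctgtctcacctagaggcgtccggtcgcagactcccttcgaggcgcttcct
Uqcr11, chr10:80406792-80406971: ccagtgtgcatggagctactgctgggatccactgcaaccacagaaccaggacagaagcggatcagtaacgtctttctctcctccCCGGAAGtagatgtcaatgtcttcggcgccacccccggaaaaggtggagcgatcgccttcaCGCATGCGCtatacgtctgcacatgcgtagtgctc
Atp5k, chr5:108434370-108434549: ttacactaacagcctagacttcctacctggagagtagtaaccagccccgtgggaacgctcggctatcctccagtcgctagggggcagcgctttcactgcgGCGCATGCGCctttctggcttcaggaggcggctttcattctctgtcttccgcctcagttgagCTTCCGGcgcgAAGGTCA

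The typical subunit gene was slightly lower after SE on average in both genotypes, with an overlap in cKO mice that came from sham-cKO replicate 4. Over the 80 members with a mean of at least 1 CPM, the median log2 level relative to the sham-WT mean was 0.09, -0.03 and -0.05 in the sham-WT libraries (replicates 1 to 3), and -0.28, -0.08 and -0.34 in the SE-WT libraries. It was -0.09, -0.05, -0.13 and -0.33 in the sham-cKO libraries (replicates 1 to 4), and -0.15, -0.31 and -0.60 in the SE-cKO libraries. All SE-WT libraries lay below all sham-WT libraries, though the nearest were at -0.08 and -0.05. All SE-cKO libraries lay below sham-cKO replicates 1 to 3. Sham-cKO replicate 4 lay far below the rest of its group and overlapped SE-cKO. The change after SE was compared between the genotypes by the interaction below, which called no member. SE-cKO replicate 3 was the lowest of the 13 libraries for 56 of the 80 members, sham-cKO replicate 4 was the lowest sham-cKO library for 73, and sham-WT replicate 1 was the highest of all libraries for 44. The mean over the group was highest in sham-WT for 72 of the 80 members and lowest in SE-cKO for 63. Since the members rise and fall together from library to library, counts of members are not counts of independent observations.

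**Figure D2:**
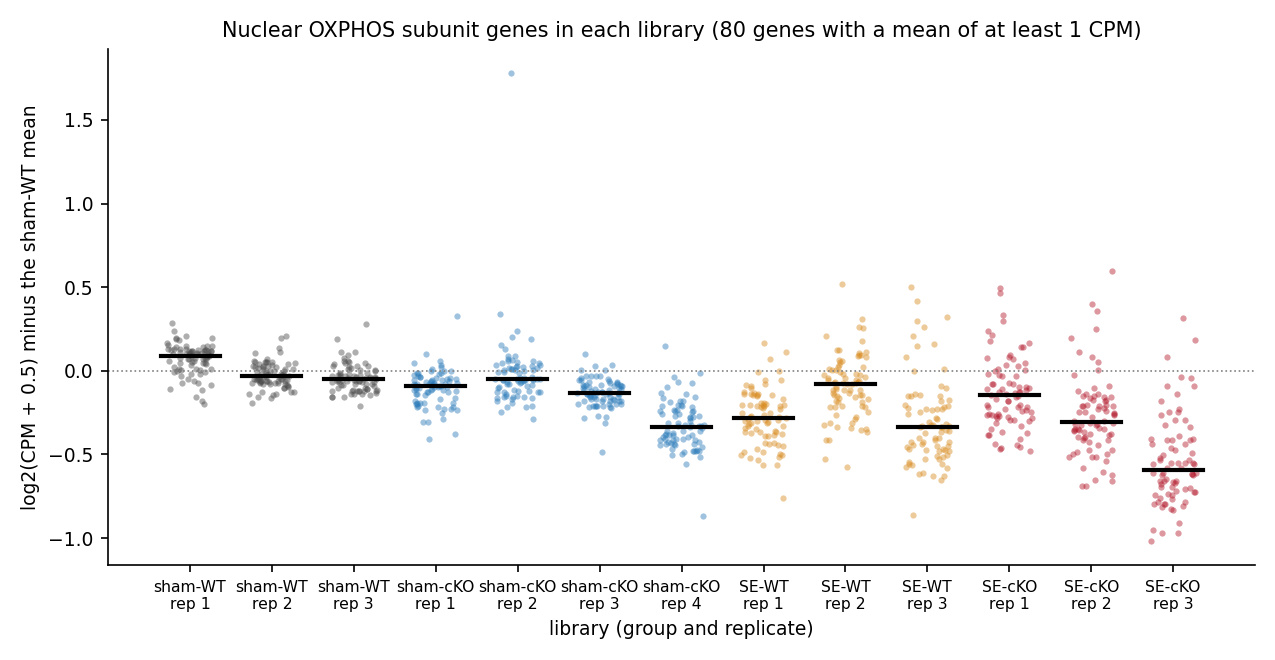
Level of 80 subunit genes in each of the 13 libraries, as log2(CPM + 0.5) minus the gene's sham-WT mean; points are genes, coloured by group, and black bars mark the median of each library. The medians run from 0.09 in sham-WT replicate 1 to -0.60 in SE-cKO replicate 3, and the single high point in sham-cKO replicate 2 is Cox6a2.

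As a share of all protein-coding transcripts by TPM, the members made up 4.15% ± 0.161 (SD, n = 3) in sham-WT and 3.50% ± 0.414 (SD, n = 3) after SE in WT mice. In cKO mice the shares were 3.88% ± 0.263 (SD, n = 4) in sham and 3.18% ± 0.397 (SD, n = 3) after SE. The SE-WT libraries, from 3.12% to 3.94%, lay below the sham-WT libraries, from 4.02% to 4.33%. The SE-cKO libraries, from 2.74% to 3.50%, met the lowest sham-cKO library, at 3.50%. Of all read counts the members took 1.04% ± 0.0260 in sham-WT, 0.966% ± 0.0763 in sham-cKO, 0.876% ± 0.0791 in SE-WT and 0.844% ± 0.128 in SE-cKO. TPM over all genes is not used for such shares, since the small noncoding RNA gene Rn7s1 alone took 18.3% to 27.9% of it.

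In WT mice, the question was what SE changes with Lin28a intact. Of the 85 members tested, 77 had a negative log2 fold change in SE-WT against sham-WT, the median was -0.25 (15.8% lower), and 1 member, Ndufa5 of complex I, was called lower. Over all 20803 genes tested the median was 0.02, 48.7% were negative, 0.832% were called lower and 4.57% were called higher, so that the single call among the members is near the background. No member was called higher by edgeR, DESeq2 or limma, where DESeq2 called 9.11% of all genes higher and limma 7.28%. All 23 members with an unadjusted p under 0.05 were lower (27.1% of members), against 7.92% of all genes with such a p that were lower and 20.8% in either direction. In 34 of the 85 members every SE-WT library lay below every sham-WT library, against 11.9% of all genes tested, and in 1, Cox7a1, every SE-WT library lay above, against 16.8% of all genes. By complex the median was -0.28 for complex I, with all 37 members negative, -0.12 for complex II, -0.25 for complex III, -0.26 for complex IV and -0.26 for complex V. Without SE-WT replicate 3 the median over the members was -0.19 and no member was called, and without SE-WT replicate 2 it was -0.36 and Ndufa4 was called in place of Ndufa5. No member was called either when SE-WT replicate 1 or any sham-WT library was left out. In these fits with 1 library left out, 0.0369% to 1.53% of all genes were called lower, so no call or a single call among the members is near that share.

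Ndufa5, an accessory subunit of the matrix arm of complex I on chromosome 6 (24518662 to 24527690), was at 56.3, 52.0 and 49.1 CPM in the sham-WT libraries and at 38.6, 35.0 and 38.9 CPM in the SE-WT libraries. The groups were well apart, and the fall was 0.51 on the log2 scale (29.8% lower, standard error 0.11, adjusted p = 0.0490 by edgeR). In cKO mice it was at 45.6, 46.8, 48.0 and 38.5 CPM in sham and 37.5, 35.8 and 34.0 CPM after SE, again without overlap, with a log2 fold change of -0.35 that was not called (adjusted p = 0.0640). The call in WT mice was lost in 12 of 16 alternatives, with an adjusted p up to 0.211 and a log2 fold change from -0.56 to -0.43. Among the 12, the fit without SE-WT replicate 3 appears also as the fit without the 2 libraries of the other title style. A further one kept SE-WT replicate 1 alone in its group. DESeq2 and limma each called 7 members lower in WT mice (8.24% of members, against 3.83% of all genes by DESeq2 and 2.83% by limma), the same 7 genes: Ndufa5, Ndufs3 and Ndufb9 of complex I, Ndufa4 and Cox4i1 of complex IV, and Atp5a1 and Atp5b of complex V.

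The smallest p of complex IV in WT mice belonged to Ndufa4, at 224, 202 and 202 CPM in sham-WT against 147, 165 and 115 CPM in SE-WT (log2 fold change -0.58, standard error 0.16, adjusted p = 0.0923). The groups did not overlap. Atp5a1, with the smallest p of complex V, was at 1027, 1039 and 1000 CPM in sham-WT and at 713, 844 and 747 CPM in SE-WT (log2 fold change -0.44, standard error 0.13, adjusted p = 0.102). Uqcrc2, a core protein of complex III, was at 251, 234 and 217 CPM in sham-WT and at 186, 201 and 158 CPM in SE-WT (log2 fold change -0.39, standard error 0.14, adjusted p = 0.160). In each of these genes every SE-WT library was below every sham-WT library, and none was called by edgeR.

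**Figure D3:**
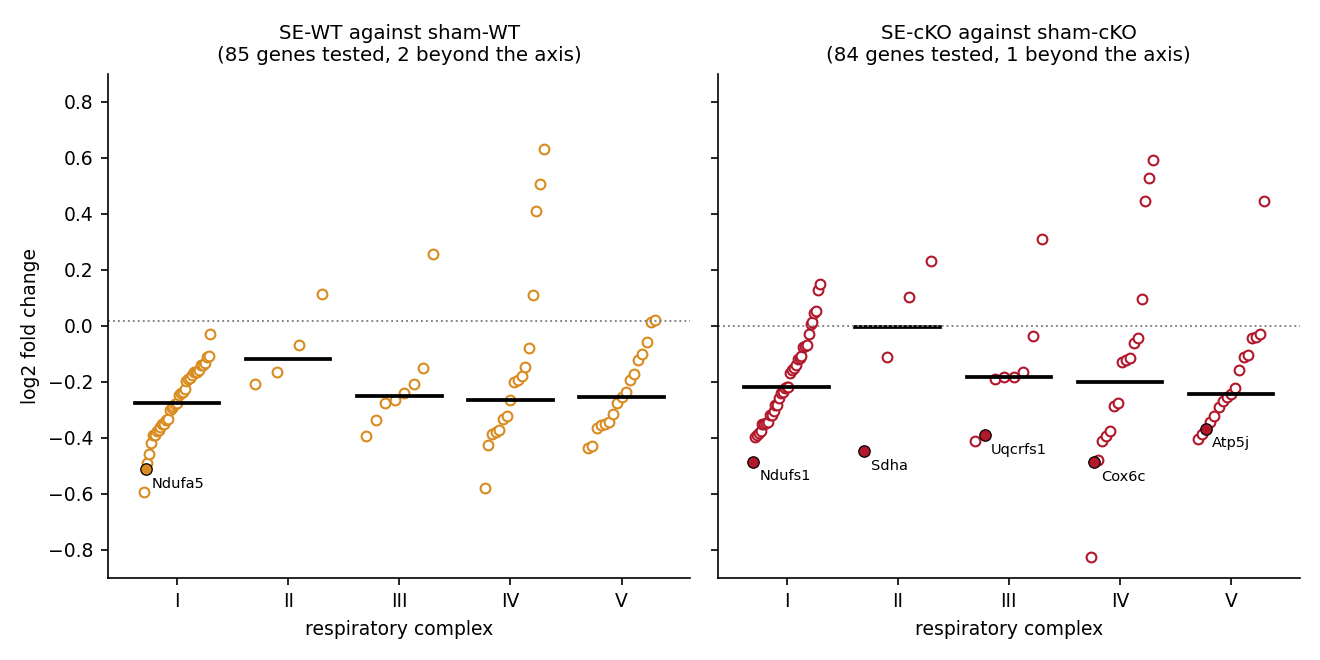
Log2 fold change of each tested subunit gene after SE, by respiratory complex on the x axis, in WT mice (left, 85 genes) and cKO mice (right, 84 genes); filled labelled points were called by edgeR, black bars are medians per complex and the dotted line is the median of all genes tested; the rare Cox8b and Cox7b2 in WT mice and Cox7b2 in cKO mice lie beyond the axis. Most points lie below 0 in both panels, and only complex II in cKO mice has a median close to 0.

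In cKO mice, the same comparison asked what SE changes with Lin28a deleted. The median log2 fold change over 84 tested members was -0.20 (13.2% lower), 70 were negative, and 5 were called lower: Sdha, Ndufs1, Uqcrfs1, Atp5j and Cox6c, 1 from each complex. This comparison called far more genes in all, 8.92% lower and 13.8% higher of 21307 tested, with a median of 0.00, so that the share of members called lower was under the background and no member was called higher. Of 20 members with an unadjusted p under 0.05, 18 were lower, where 15.9% of all genes had such a p and were lower. DESeq2 called 14 members lower (16.7% of members, against 13.1% of all genes) and 1 higher (16.3% of all genes), and limma 4 lower (8.85% of all genes) and 1 higher (14.9% of all genes). In 11 members every SE-cKO library was below every sham-cKO library, a share near the 14.4% of all genes tested, and in 2, Uqcrq and Ndufa4l2, every SE-cKO library was above, against 19.8% of all genes. By complex the median was -0.22 for complex I, -0.00 for complex II, -0.18 for complex III, -0.20 for complex IV and -0.24 for complex V. Without SE-cKO replicate 3 the median over the members was -0.08 and Sdha alone was called lower, against 7.8% of all genes. Without sham-cKO replicate 4 it was -0.28 with 8 members called lower (9.52% of members, against 6.56% of all genes). Sdha was also the sole member called lower when sham-cKO replicate 1, 2 or 3 was left out (6.15%, 8.94% and 6.46% of all genes). Without SE-cKO replicate 1, 8 were called lower (9.52% of members, against 7.95% of all genes). Without SE-cKO replicate 2, 2 were (2.35%, against 5.82%).

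Sdha, the flavoprotein that oxidises succinate, lies on chromosome 13 (74322255 to 74350240). It was at 345, 326, 333 and 323 CPM in the sham-cKO libraries and at 260, 227 and 257 CPM in the SE-cKO libraries. The groups were far apart, and the fall was 0.45 on the log2 scale (26.6% lower, standard error 0.10, adjusted p = 0.0137 by edgeR), which held in 16 of 17 alternatives. In WT mice Sdha was at 362, 346 and 314 CPM in sham and 317, 274 and 309 CPM after SE, with overlap, and differed by -0.21 on the log2 scale (adjusted p = 0.383, standard error 0.12). Sdha was the only complex II gene to pass the test. Sdhb fell short of it with -0.17 in WT and -0.11 in cKO mice. The membrane anchors Sdhc and Sdhd, which hold the catalytic pair to the membrane, were at 0.11 and -0.07 in WT mice and at 0.23 and 0.10 in cKO mice, none of them called. In cKO mice the 4 genes of complex II thus ranged from -0.45 to 0.23.

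**Figure D4:**
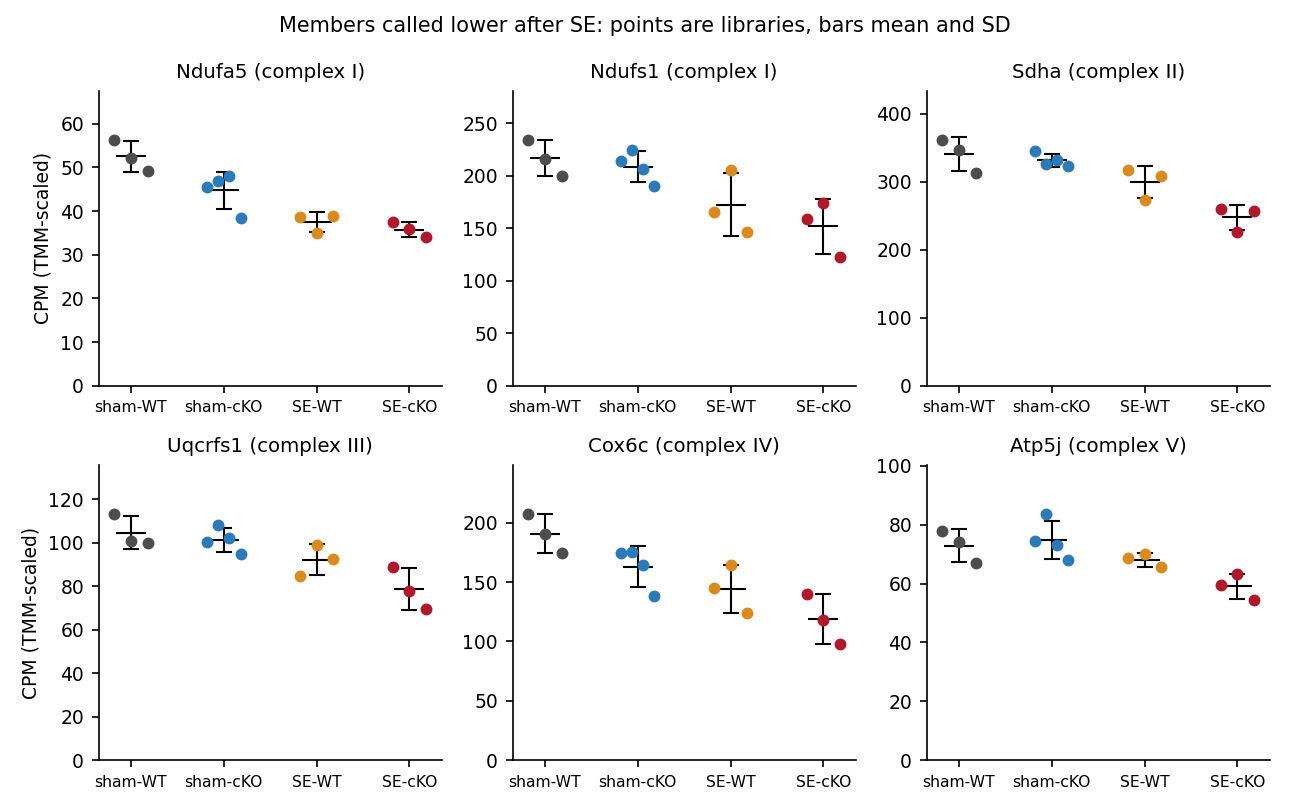
CPM of the 6 subunit genes called lower after SE in WT mice (Ndufa5) or in cKO mice (the other 5), with each axis starting at 0; points are libraries and bars are the mean and SD of each group (n = 3, and 4 for sham-cKO). Sdha in SE-cKO lies at 227 to 260 CPM, below every other library.

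Ndufs1, the largest subunit of complex I, which carries iron-sulfur clusters of the electron path, lies on chromosome 1 (63143592 to 63176822). It was at 215, 224, 206 and 190 CPM in sham-cKO and at 159.1, 174 and 123 CPM in SE-cKO (log2 fold change -0.49, standard error 0.14, adjusted p = 0.0366). Uqcrfs1, the Rieske iron-sulfur protein of complex III on chromosome 13 (30540312 to 30545316), was at 100.3, 108, 102 and 94.8 CPM in sham-cKO and at 88.7, 77.8 and 69.8 CPM in SE-cKO (log2 fold change -0.39, standard error 0.11, adjusted p = 0.0400). In both genes the groups did not overlap, though SE-cKO replicate 3 was the lowest. 

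Atp5j, coupling factor 6 in the stalk of complex V, lies on chromosome 16 (84827871 to 84835857). It was at 74.5, 83.6, 73.0 and 67.9 CPM in sham-cKO and at 59.6, 63.1 and 54.4 CPM in SE-cKO (log2 fold change -0.37, standard error 0.11, adjusted p = 0.0451). Cox6c, a small structural subunit of complex IV on chromosome 15 (35931976 to 35938246), was at 174, 175, 164 and 138 CPM in sham-cKO and at 140, 118 and 97.8 CPM in SE-cKO (log2 fold change -0.49, standard error 0.15, adjusted p = 0.0490). Atp5j showed no overlap, whereas for Cox6c sham-cKO replicate 4 lay below SE-cKO replicate 1. Of the alternatives, Atp5j lost its call in 11 of 17, Cox6c in 9, and Ndufs1 and Uqcrfs1 in 8 each. Among the 17, the fit without SE-cKO replicate 3 appears also as the fit without the 2 libraries of the other title style.

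Some members had positive log2 fold changes after SE, 8 of 85 in WT and 14 of 84 in cKO mice. Uqcrq, a small subunit of complex III, was at 31.6, 33.6, 27.5 and 30.1 CPM in sham-cKO and at 39.1, 37.7 and 39.5 CPM in SE-cKO, with no overlap and a log2 fold change of 0.31 that edgeR did not call (standard error 0.11, adjusted p = 0.0779) and DESeq2 called (adjusted p = 0.0416). In WT mice its log2 fold change was 0.26 (adjusted p = 0.434). Atp5g2 of the c ring was at 47.0, 49.9, 47.1 and 40.5 CPM in sham-cKO and at 73.9, 70.7 and 47.0 CPM in SE-cKO, where replicate 3 lay within the sham range and the others well above it (log2 fold change 0.44, standard error 0.17, adjusted p = 0.0939). limma called it higher. Its partner genes had log2 fold changes of -0.11 for Atp5g1 and -0.16 for Atp5g3 in the same comparison. In WT mice Atp5g2 and Atp5g3 were at 0.01 and 0.02, whereas Atp5g1 was at -0.43 (adjusted p = 0.158). Without SE-cKO replicate 3 Atp5g2 was the single member called higher, against 13.8% of all genes.

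The rare complex IV paralogues gave no call by edgeR in either genotype. Cox7a1 had log2 fold changes of 0.41 in WT and 0.59 in cKO mice, at 1.58 CPM on average in sham-WT and 2.14 CPM in SE-WT, and Ndufa4l2 of 0.63 and 0.53, from 0.683 CPM in sham-cKO to 1.00 CPM in SE-cKO. Cox7b2 was at 0.352, 0.326, 0.273 and 0 CPM in sham-cKO and at 0 counts in every SE-cKO library, which allows up to 0.0391 to 0.0454 CPM per library, and was called by DESeq2 (adjusted p = 0.0106) but not by edgeR (adjusted p = 0.0574). It did not pass the count filter for SE-cKO against SE-WT, Cox8b did not pass it in either comparison of SE-cKO, and Cox8c passed in none.

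The effect of the deletion alone was asked in sham mice. No member of 85 was called by edgeR, DESeq2 or limma. The share of all 20785 genes called was 0% by edgeR and by limma as well, and DESeq2 called 15 higher and 2 lower. By edgeR 8 members had an unadjusted p under 0.05, all lower, where 1.73% of all genes had such a p and were lower. In CPM, 80 of 85 members had a negative log2 fold change in sham-cKO against sham-WT, with a median of -0.13 (8.66% lower), beside 0.01 over all genes tested, and in 20 members every sham-cKO library lay below every sham-WT library, against 3.81% of all genes. The shares of read counts and of protein-coding TPM were likewise lower on average in sham-cKO. Summed deposited TPM, the scale set aside above for shares because of Rn7s1, did not show this. On it sham-cKO was not below sham-WT in any complex, with differences within the spread for complexes I and V. These were 3951 ± 252 TPM (SD, n = 4) against 3903 ± 281 TPM (SD, n = 3) for complex I and 4800 ± 336 TPM against 4680 ± 390 TPM for complex V. Uqcr11 had the smallest p, at 84.2, 82.0, 86.5 and 75.4 CPM in sham-cKO and 105, 96.8 and 99.4 CPM in sham-WT, with no overlap (log2 fold change -0.28, standard error 0.07, adjusted p = 0.868). Among the other complexes the smallest p belonged to Ndufs7 (-0.22), Sdhd (-0.08), Cox6a1 (-0.24) and Atp5d (-0.18), none of which was called. Without sham-cKO replicate 4, the lowest of its group for 73 of 80 members, the median was -0.08. This comparison and that of SE-WT share the sham-WT libraries, whose replicate 1 was the highest of all libraries for 44 of 80 members.

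After SE, the 2 genotypes were compared directly. No member of 83 was called in SE-cKO against SE-WT by edgeR, DESeq2 or limma, and none had an unadjusted p under 0.05 by edgeR. Of 21126 genes, 0% were called by edgeR and by limma, whereas DESeq2 called 304 higher and 222 lower. The median was -0.15 (9.62% lower), beside 0.00 over all genes, with 75 members negative and 4 (Sdha, Cox6a1, Atp5j and Atp5md) with every SE-cKO library below every SE-WT library, against 5.68% of all genes tested. Sdha had the smallest p, with 248 CPM on average in SE-cKO and 300.1 CPM in SE-WT (log2 fold change -0.31, standard error 0.15, adjusted p = 0.567). Without SE-cKO replicate 3 the median was -0.04. Whether the change after SE differed by genotype was tested as an interaction over all 13 libraries. It again called no member of 85 by edgeR, DESeq2 or limma, and none had an unadjusted p under 0.05 by edgeR. Of 22596 genes, edgeR called 0.159%, DESeq2 361 higher and 364 lower, and limma 20 higher and 21 lower. The median interaction over the members was 0.07, and it ranged from -0.06 to 0.10 when single libraries were left out. Atp5g2 had a log2 interaction of 0.43 (standard error 0.21, adjusted p = 0.421) and Sdha one of -0.24 (standard error 0.14, adjusted p = 0.517).

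The 13 subunits encoded by mitochondrial DNA, which join the nuclear ones in complexes I, III, IV and V, went the other way in the libraries that stood apart. None was called in any comparison. In WT mice all 13 had a positive log2 fold change after SE, with a median of 1.15, and in cKO mice 11 had, with a median of 0.70. The median log2 level relative to sham-WT was 0.49 and 0.30 in SE-WT replicates 1 and 2 and 2.01 in replicate 3, and -0.26 and -0.17 in SE-cKO replicates 1 and 2 and 1.97 in replicate 3, so that the high values lay in the libraries rich in mitochondrial rRNA. The most abundant, COX1 and COX3, were nearly level in WT mice, at 0.12 (adjusted p = 0.756) and 0.10 (adjusted p = 0.821), and in cKO mice they were at -0.16 and -0.43, while the low ATP8 differed in WT mice by 2.15 on the log2 scale (standard error 0.77, adjusted p = 0.171). The same SE-cKO replicate 3 was thus the lowest library for nuclear subunits and among the highest for mitochondrial ones.

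**Figure D5:**
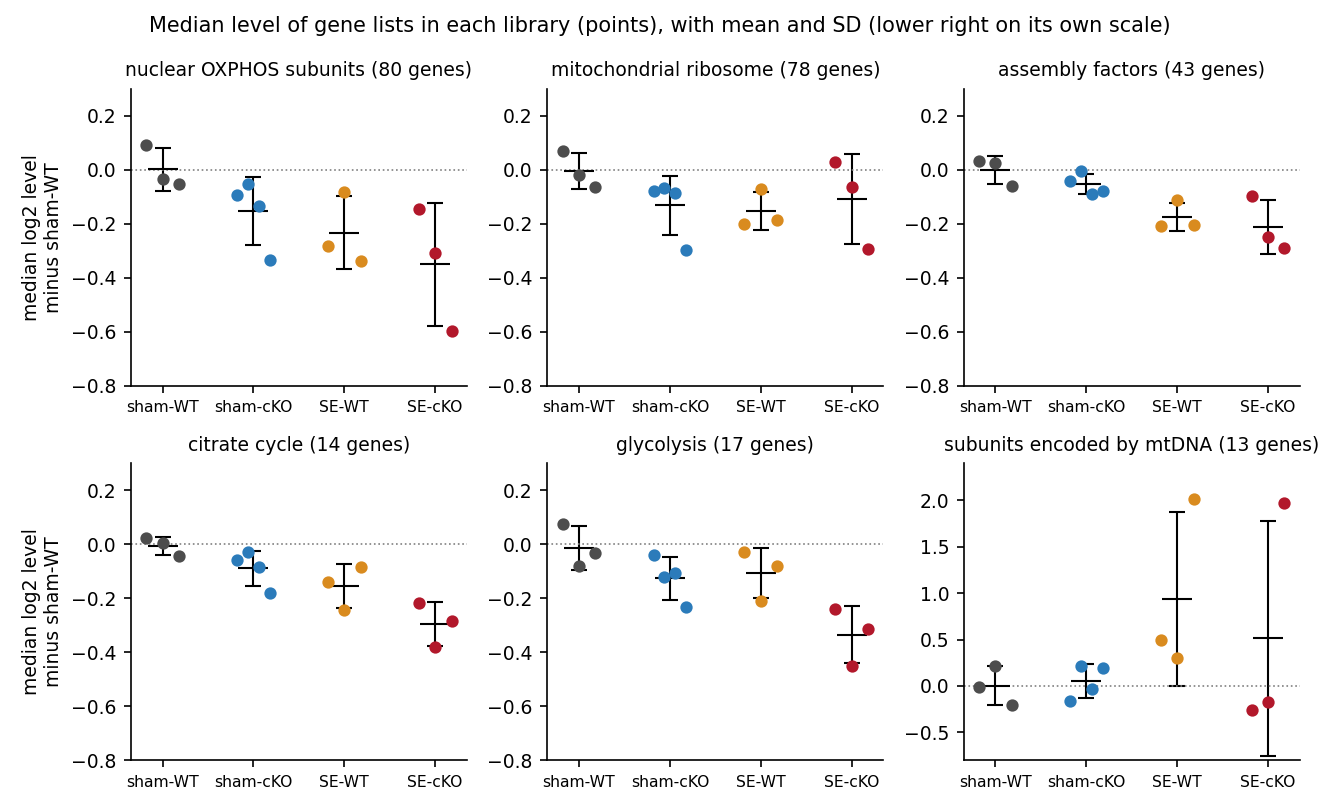
Median log2 level of 6 gene lists in each library relative to the sham-WT mean (y axis), by group; points are libraries, bars are the mean and SD of the group (n = 3, and 4 for sham-cKO), and the lower right panel has its own scale. SE-cKO replicate 3 is lowest for the nuclear subunits at -0.60, and both replicates numbered 3 after SE stand near 2 for the subunits encoded by mitochondrial DNA (2.01 and 1.97).

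Genes that work beside the subunits were taken from lists chosen, like the members, with earlier results known. More calls in cKO mice than in WT mice held for all genes tested. In WT mice 0.832% of them were called lower and 4.57% higher, and in cKO mice 8.92% lower and 13.8% higher. No gene of the lists in this paragraph was called by edgeR in the interaction of genotype and SE or in SE-cKO against SE-WT. A call in 1 genotype alone is thus not a difference between the genotypes. Of 43 assembly factors, which help build the complexes, 35 had a negative log2 fold change in WT mice (median -0.22, none called) and 31 in cKO mice (median -0.16), where 5 were called lower: Ndufaf4, Ndufaf5 and Tmem126b for complex I, Uqcc1 for complex III and Tmem70 for complex V. Of the 78 proteins of the mitochondrial ribosome, 68 were negative in WT mice with a median of -0.21, whereas 39 were in cKO mice with a median of 0.00, where 3 were called higher and 2 lower. Mrps6 was called higher in both genotypes, by 1.62 and 1.94 on the log2 scale, and was the single call of this list in WT mice. Cyc1, the cytochrome c1 of complex III, whose symbol the selection rule does not match, and Cycs, the cytochrome c that takes electrons on to complex IV, were negative in both genotypes and not called. Genes of the citrate cycle called in cKO mice included Idh3a, Idh3b, Idh3g and Sucla2, which were lower, and Idh2, which was higher, and none of these was called in WT mice. In glycolysis, Hk2 was called higher in WT mice (log2 fold change 1.90, standard error 0.23, adjusted p = 0.00542) and in cKO mice (2.50, standard error 0.22, adjusted p = 0.000152), where Ldha was also called higher and Gpi1 and the neuronal enolase Eno2 lower. Of 7 carriers and uncouplers of the inner membrane, Ucp2, present in microglia, was called higher in cKO mice (2.81, standard error 0.22, adjusted p = 8.91e-05) and Slc25a27 and Slc25a14, known from neurons, lower.

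Of 14 regulators of the subunit genes, none was called in WT mice, while 3 were called lower and 1 higher in cKO mice. Over all genes tested, 0.832% were called lower and 4.57% higher in WT mice, against 8.92% lower and 13.8% higher in cKO mice. Esrrg, an estrogen-related receptor of tissues with high oxidative demand, was in cKO mice at 20.2 CPM on average in sham-cKO and 7.52 CPM in SE-cKO (log2 fold change -1.45, standard error 0.21, adjusted p = 0.00178). Its coactivator Ppargc1b fell by 0.79 (adjusted p = 0.00785). The third regulator called lower, Ppargc1a, the coactivator of mitochondrial biogenesis, fell by 0.53 (adjusted p = 0.0342) and was named after its value was seen. Gabpa, the DNA-binding part of GABP, rose by 0.50 (adjusted p = 0.0136). The difference between genotypes was called for Esrrg alone of the 14, with a log2 interaction of -1.74 (standard error 0.28, adjusted p = 0.0418 by edgeR), where 0.159% of all genes were called. It was larger in size than the fall of Esrrg in cKO mice, so it also rests on the WT libraries. SE-WT replicates 2 and 3 and sham-cKO replicate 2, high in genes of striatal or thalamic neurons, enter it. Their part in this interaction was not tested.

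Markers of several cell types moved with SE. In WT mice all 7 microglia and macrophage markers were called higher, with summed levels of 245 to 257 CPM in sham-WT and 855 to 1074 CPM in SE-WT, and 3 of 7 astrocyte markers were called higher. In cKO mice again all 7 microglial markers were called higher, with 227 to 252 CPM in sham-cKO and 1003 to 1517 CPM in SE-cKO, and 3 astrocyte markers were called higher and 1 lower. Of 12 neuronal markers none was called in WT mice, with summed levels of 6405 to 7180 CPM in sham-WT and 4904 to 6309 CPM in SE-WT, and 3 were called lower in cKO mice, with 6233 to 7279 CPM in sham-cKO and 3880 to 5494 CPM in SE-cKO. No marker of these 3 lists was at 0 in every library. In cKO mice 3 of 5 endothelial, 1 of 6 mural and 1 of 6 oligodendrocyte markers were called higher and none lower. None of these was called in WT mice. No choroid plexus marker was called, with summed levels from 17.0 CPM in an SE-cKO library to 4412 CPM in a sham-WT library. Of all genes tested, 0.832% were called lower and 4.57% higher in WT mice, and 8.92% lower and 13.8% higher in cKO mice. Of 5 markers of parvalbumin interneurons, none was called in WT mice, with 1 negative and a median log2 fold change of 0.07. In cKO mice 2 were called lower, with all 5 negative and a median of -0.83. The median log2 level of this list relative to sham-WT was 0.60 in SE-WT replicate 3 and 0.27 in sham-cKO replicate 2. Both libraries were high in genes of thalamic neurons. It was 0.39 in sham-cKO replicate 4. The part of these cell types in the levels of the subunit genes was not tested. In RNA of whole hippocampus fewer cells of a type and less RNA per cell cannot be told apart.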

How the data were processed

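RNA was measured in 13 hippocampal libraries, from TruSeq stranded total RNA kits. The authors processed reads with bcl2fastq 2.20.0, Trimmomatic, HISAT2 2.1.0 (mm10) and StringTie 2.1.3b; the strand setting of the counting is not given in the sources used here. They deposited read counts, FPKM and TPM per gene. The deposited read counts are whole numbers with no normalization and were used for every test and for CPM. The deposited TPM values served to compare levels between genes, and the deposited FPKM values were not used. Overlapping genes and near-identical copies may share reads.

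Counts were filtered with filterByExpr (minimum count 10, minimum total 15), given TMM factors and fitted in edgeR 4.0.16 (R 4.3.3; robust quasi-likelihood F test), with the libraries of the 2 groups compared, or all 13 for the interaction; adjusted p values cover all genes tested, with a threshold of 0.05. Scripts were tested on simulated data. Medians per library use log2(CPM + 0.5) of members with a mean of at least 1 CPM. Alternatives were DESeq2 1.42.0, limma 3.58.1 (voom with quality weights), RLE factors, library totals, no filter, 1 fit of all groups, the replicate number as a block, Xist as covariate, and libraries left out. Positions and promoters are from RefSeq (GRCm38.p6), where all 86 gene IDs matched. p values measure the spread between the 3 or 4 libraries of a group.

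Members named are those called, those with the smallest p per complex and comparison, the 2 of highest TPM per complex, complex II, paralogues of complex IV and the c ring, and those failing the filter; from each pathway list, up to 3 genes of smallest p, and the genes encoded by mitochondrial DNA. Uqcrq, Ndufs3, Ndufb9, the Ndufb4 copies, Atp5md and pathway genes beyond those 3 were named after their values were seen. The members and lists were chosen with earlier results of these data known. A result of the citrate cycle list is not reported here.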

Additional observations from a re-analysis of the deposited data

Results flagged for a closer look

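In groups of 4 to 10 libraries, here sham-cKO, 45 values were checked for a library far from the others by Dixon's ratio, and 5 passed the 95% critical value, where chance flags about 1 in 20. Cox6a2, the muscle form of subunit 6a, stood at 5.13 CPM in sham-cKO replicate 2, against 0.9005 to 1.55 CPM in the other sham-cKO libraries. In the same library Cox6b2 was lowest at 0.295 CPM and Cox7a2l was highest at 153.4 CPM. This library was also the one of the sham-cKO group high in genes of thalamic neurons. Cox8b was at 0.300 CPM in sham-cKO replicate 3 and at 0 or 0.0328 CPM in the others. The median log2 level of complex II relative to sham-WT was -0.19 in sham-cKO replicate 4, against -0.03 to -0.01 in the others, and the same library was the lowest of its group for 73 of 80 members.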

How the results depend on the processing

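The median of the members kept its sign under every alternative in the 4 comparisons of 2 groups. With 1 call in WT mice, members called lower numbered 7 by DESeq2, 7 by limma and 2 with the Xist covariate. They numbered 0 with RLE factors, library totals, no filter or a replicate block, and 0 to 1 with single libraries left out. Without the 2 libraries of the other title style, each genotype loses only its SE replicate 3. This repeats the fit without that library, with 0 in WT mice. Without 3 libraries rich in striatal or thalamic neuron genes (sham-cKO replicate 2 and SE-WT replicates 2 and 3), SE-WT keeps replicate 1 alone. No count is given for WT mice there. With 5 in cKO mice, members called lower numbered 14 by DESeq2, 9 in 1 fit of all groups and 8 without the 3 libraries. They numbered 1 with library totals, 1 without the 2 libraries of the other title style (a median of -0.08), 0 with the replicate block, and 1 to 8 with single libraries left out. Members called higher in cKO mice, 0 in the main test, numbered 2 with the Xist covariate, 1 by DESeq2, by limma, in 1 fit, with library totals and without the 2 libraries, and 0 to 1 with single libraries left out. In these settings 13.5% (Xist covariate) to 16.3% (DESeq2) of all genes were called higher, and 10.6% to 13.8% with single libraries left out. The members thus lay far under the background. Same-numbered libraries did not deviate together throughout (correlations from -0.15 to 0.44), so the replicate block rests on a number alone; with it the medians were -0.26 in WT and -0.28 in cKO mice.

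With single libraries left out, the median ranged from -0.36 to -0.19 in WT mice, and the median interaction of genotype and SE from -0.0562 (without SE-cKO replicate 1) to 0.10, with a change of sign also without SE-WT replicate 3 (-0.02) and without sham-WT replicate 1 (-0.01). Members with no overlap numbered 35 to 59 below and 1 to 3 above in WT mice, 11 to 35 below and 2 to 8 above in cKO mice, 4 to 18 below and 0 to 3 above between the genotypes after SE, and 20 to 38 below and 0 to 1 above in sham. With library totals they numbered 7 below in cKO mice and 1 below between the genotypes after SE. Groups with 1 library fewer are apart more easily for any gene. The share of all genes was not taken for these counts, so they are not read as a larger or smaller change. Of all genes tested, the share called lower under the same alternatives was 0.401% (no filter) to 3.83% (DESeq2) in WT mice and 3.57% (replicate block) to 13.1% (DESeq2) in cKO mice, and 0.0369% to 1.53% and 5.82% to 8.94% with single libraries left out. The causes were not tested.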
